A study of Rattus norvegicus with 6 samples.

Results

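The natriuretic peptide genes Nppa and Nppb and 7 other genes that heart muscle cells use under load (Ankrd1, Xirp1, Xirp2, Acta1, Actc1, Fhl1 and Fhl2) were described in neonatal rat ventricular cardiomyocytes, heart muscle cells taken from newborn rats and kept in culture. They were found by gene name in the deposited expression table, and all 9 members were present among its 34510 genes. The series compared 3 libraries of a group named Trim28 with 3 of a group named Bgal. Cells of the Trim28 group received an adenovirus that expresses TRIM28, a chromatin corepressor, per the series' design text. The labels do not expand the name Bgal or say which virus, if any, those cells received, and they give no rat strain, virus dose, time, promoter or culture batch. Poly(A) RNA was sequenced in all 6 libraries, and values are FPKM, a read count divided by gene length and library size.

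Nppa and Nppb encode the hormones ANP and BNP, which the heart releases when its wall is stretched and which raise cyclic GMP in kidney, vessels and heart through guanylyl cyclase receptors. Nppa is high in the fetal ventricle, fades there after birth and returns under load, and for that reason both peptides are read as markers of cardiac stress. The other members stand close to the contractile apparatus. Acta1 and Actc1 are the skeletal and cardiac alpha actins, Ankrd1 encodes a protein that binds titin and also enters the nucleus, Xirp1 and Xirp2 encode Xin proteins that bind actin at cell junctions, and Fhl1 and Fhl2 encode LIM domain proteins that bind titin and signalling proteins.

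Of the 9 members, 5 rose in the Trim28 libraries (Fhl1, Actc1, Nppa, Xirp1 and Ankrd1), 1 fell (Fhl2) and 3 did not pass the test (Acta1, Nppb and Xirp2). A gene passed at an adjusted p under 0.05 in limma, a linear model with variance shared between genes, fitted to log2(FPKM + 1) with Benjamini-Hochberg adjustment over all 14808 tested genes. In that fit 41.2% of all tested genes passed, 20.1% higher and 21.1% lower. Among the 751 tested genes with a mean of at least 100 FPKM, a level that 8 of the 9 members reach, 66.2% passed, a share near that of the members. The median log2 difference of the members was 0.26, against -0.02 for all tested genes. In 7 members the groups did not overlap, 6 of them higher and 1 lower in Trim28, against 53.8% of all tested genes without overlap, 26.0% higher and 27.7% lower.

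**Figure D1:**
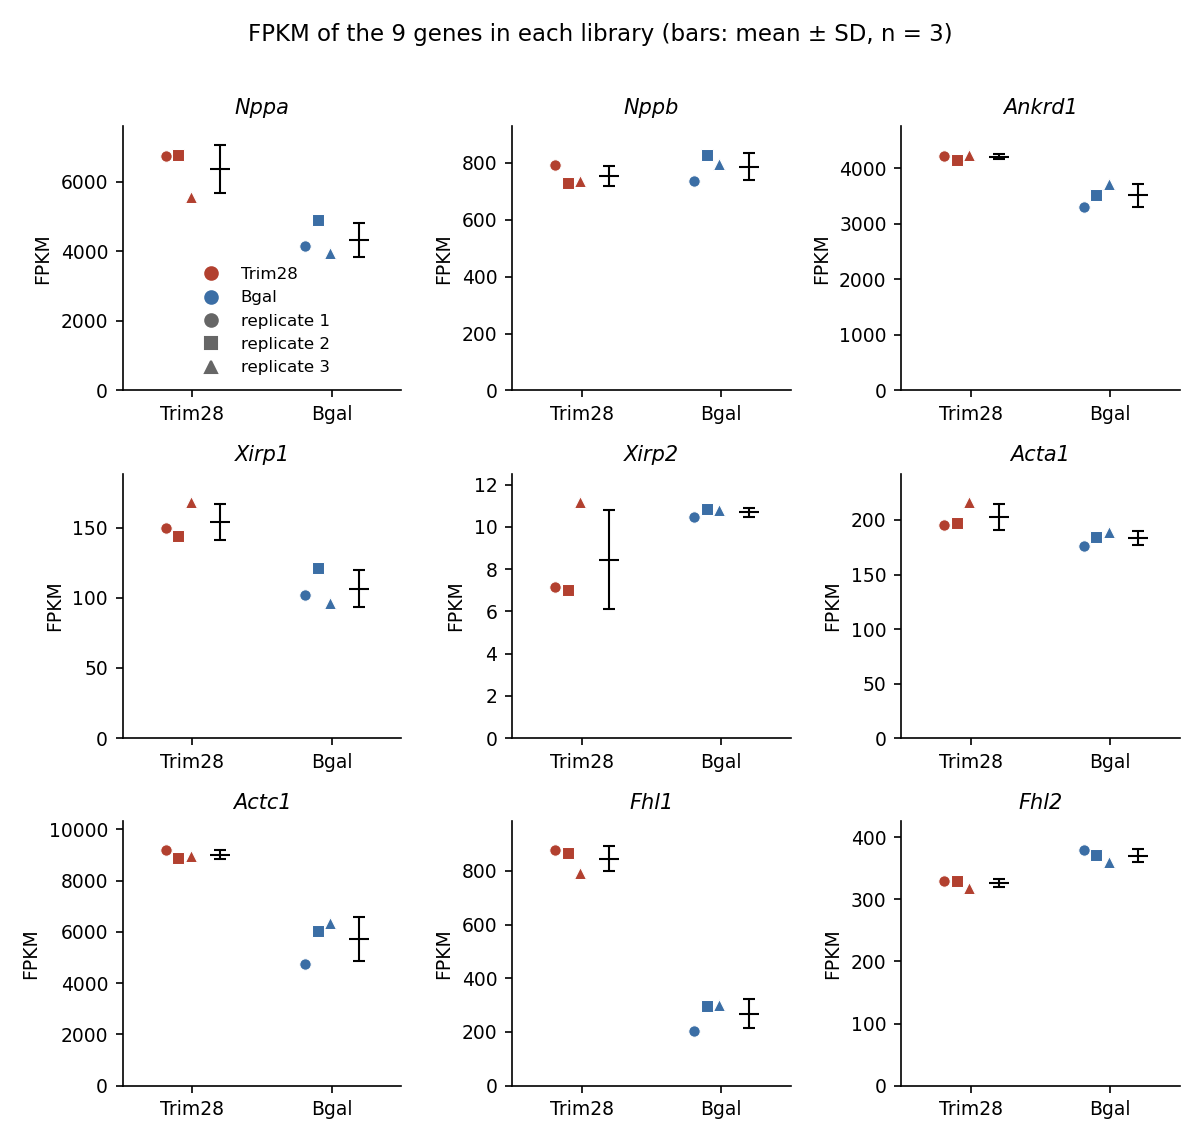
FPKM of each of the 9 genes in the 3 Trim28 libraries (left, red) and the 3 Bgal libraries (right, blue), with marker shape for the replicate number and bars for the mean ± SD of 3 libraries. Fhl1 stands at 791 to 878 FPKM in the Trim28 libraries and 205 to 301 in the Bgal libraries, and Trim28 replicate 3 stands alone among the Trim28 libraries for Xirp2.

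The libraries held between 26146166 and 34593292 reads assigned to genes, and each member had at least 2232 reads in every library. The level of Trim28 checked the labels: it was 2923, 2889.8 and 980.0 FPKM in the Trim28 libraries, against 81.6, 87.8 and 77.6 FPKM in the Bgal libraries, with a log2 difference of 4.60 (SE 0.39, limma adjusted p = 0.000193). Trim28 replicate 3 therefore held the lowest level of the 3. The table gives a single value for Trim28, in which transcripts of the virus and of the cell's own gene are not separated. The labels do not say that libraries of a group came from separate cultures or animals, so p-values measure the spread between these samples only, which may be technical.

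Markers of other cells differed between the groups in the same libraries, where 20.1% of all tested genes were higher and 21.1% lower. The summed level of 8 fibroblast markers was 773 to 837 FPKM in the Trim28 libraries and 434 to 453 FPKM in the Bgal libraries, and 7 of the 8 rose and 0 fell. For 5 leukocyte markers the sums were 56.3 to 57.3 FPKM in Trim28 and 23.7 to 24.3 FPKM in Bgal, and all 5 rose. Of 7 smooth muscle and mural cell markers 6 rose and 0 fell, with sums of 1619 to 1717 FPKM in Trim28 and 760.1 to 1017 FPKM in Bgal. Most of each sum was Acta2, the smooth muscle alpha actin, at 1284 to 1384 FPKM in Trim28 and 564 to 765 FPKM in Bgal. Neonatal cardiomyocytes can also express Acta2. The cardiomyocyte markers were abundant in both groups, which fits the labelled cell type, with a sum over 9 genes of 13583 to 13907 FPKM in Trim28 and 15831 to 17307 FPKM in Bgal, and 1 of them rose and 6 fell. Endothelial markers were low, with 2 above the filter, 1 called higher and 1 called lower, and no list held a marker that was at 0 in every library. In bulk RNA a change in the number of cells of a type and a change in RNA per cell cannot be told apart, and the part of these differences in the results on the members was not tested.

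**Figure D2:**
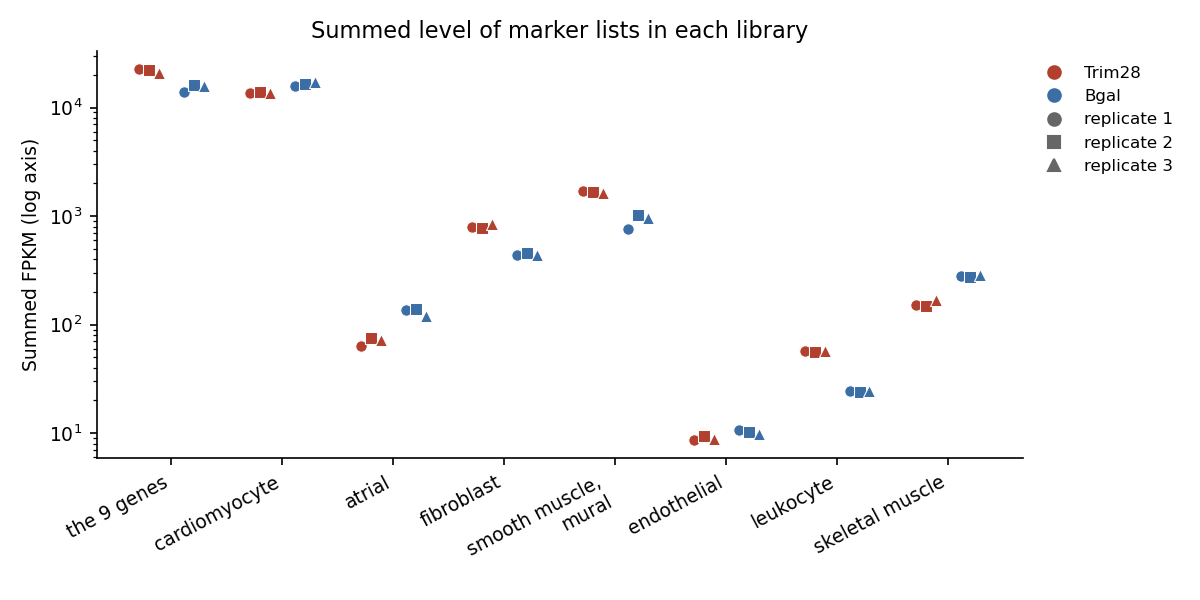
Summed FPKM, on a log axis, of the 9 genes and of each marker list in every library, with Trim28 (red) left of Bgal (blue) and marker shape for the replicate number. The fibroblast, smooth muscle and leukocyte sums are higher in every Trim28 library than in any Bgal library, and the cardiomyocyte and atrial sums are lower. Most of the smooth muscle sum is Acta2.

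The natriuretic peptide genes lie side by side on chromosome 5 and did not move alike. Nppa (ENSRNOG00000008176, 164808323 to 164809705, plus strand) begins 10791 bases beyond the end of Nppb (ENSRNOG00000008141, 164796185 to 164797531, plus strand). These positions are those of the deposited table, and no source used here names their genome build. The sequences around their start sites are shown because the genes are neighbours with unlike differences. They run from 250 bases before to 50 bases after the start site in RefSeq for build GRCr8, on the plus strand, for Nppa at chr5:163711934-163712233 and for Nppb at chr5:163699758-163700057. Capitals mark matches to the motifs that were searched.
Nppa: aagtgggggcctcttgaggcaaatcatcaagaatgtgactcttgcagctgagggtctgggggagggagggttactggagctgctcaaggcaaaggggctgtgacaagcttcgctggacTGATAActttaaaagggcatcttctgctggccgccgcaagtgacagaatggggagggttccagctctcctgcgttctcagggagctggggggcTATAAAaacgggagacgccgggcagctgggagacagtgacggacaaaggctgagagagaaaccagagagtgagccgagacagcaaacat
Nppb: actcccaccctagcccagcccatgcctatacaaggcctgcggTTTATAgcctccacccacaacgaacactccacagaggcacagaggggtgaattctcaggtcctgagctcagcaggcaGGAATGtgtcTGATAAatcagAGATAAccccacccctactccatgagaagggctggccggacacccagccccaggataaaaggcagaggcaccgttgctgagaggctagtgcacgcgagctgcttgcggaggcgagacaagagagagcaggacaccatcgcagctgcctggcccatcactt

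The motifs searched on both strands were TGATAA and AGATAA, which GATA factors bind, CATTCC, which TEAD factors bind, TGANTCA, which AP-1 factors bind, TATAAA, and the CArG box, which serum response factor binds. The windows of both genes hold TGATAA, for Nppa at positions -132 to -127 and for Nppb at -121 to -116, counted from +1 at the start site. Nppb also holds AGATAA at -110 to -105 and a reverse match to CATTCC at -131 to -126, and each window has a match to TATAAA on one strand. Of all 33469 RefSeq windows of this length, 9.03% hold TGATAA, 11.6% AGATAA, 14.2% CATTCC, 7.33% TGANTCA and 14.2% TATAAA. Such matches describe the letters and do not show binding.

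Nppa, the ANP gene, stood at 6739, 6789.7 and 5575 FPKM in Trim28 replicates 1 to 3, against 4160.1, 4894 and 3950.3 FPKM in Bgal replicates 1 to 3. All Trim28 libraries were above all Bgal libraries, and Trim28 replicate 3 was the lowest of its group. The mean was 6368 ± 687 FPKM in Trim28 and 4335 ± 496 FPKM in Bgal (SD, n = 3 each), or 1.47-fold. The log2 difference was 0.55 (SE 0.11, 95% interval 0.29 to 0.82, limma adjusted p = 0.00711). With no filter on low genes the same difference had an adjusted p of 0.0574, and it passed in the other 12 alternatives, at up to 0.0335.

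Nppb, the BNP gene, stood at 792, 729.9 and 737 FPKM in the Trim28 libraries and 737, 829 and 794 FPKM in the Bgal libraries, and the groups overlapped. Its log2 difference of -0.06 (SE 0.06) had a 95% interval of -0.20 to 0.08 and did not pass (limma adjusted p = 0.445). That interval lies below the whole interval of Nppa. Nppb made up 10.6% ± 0.991 of the summed FPKM of both peptide genes in Trim28 and 15.4% ± 1.17 in Bgal (SD, n = 3 each). The groups of this share did not overlap, and the exact two-sided permutation test gave p = 0.1, the smallest that 3 libraries against 3 can give.

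Genes whose bodies lie within 50000 bases of Nppa or Nppb differed in both directions. Upstream of Nppb, Plod1, a collagen lysyl hydroxylase, rose to 23.3 ± 0.213 FPKM in Trim28, against 15.1 ± 1.22 FPKM in Bgal, and RGD1305350 had 25.0 ± 0.401 and 22.1 ± 1.84 FPKM in Trim28 and Bgal and did not pass (limma adjusted p = 0.0700). Beyond Nppa, the chloride transporter gene Clcn6 fell to 12.3 ± 0.878 FPKM in Trim28, against 14.7 ± 0.153 FPKM in Bgal (limma adjusted p = 0.0192). The call of Clcn6 was lost without Bgal replicate 1 or Trim28 replicate 1 or 2, with adjusted p up to 0.0610. RGD1305350 passed without Bgal replicate 2 (adjusted p = 0.0249) and in limma-voom, a fit of reads recovered from the FPKM values (adjusted p = 0.0468).

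Genes that process, sense and break down natriuretic peptides were mostly higher in Trim28. Of 12 listed genes 11 were in the table and 10 were tested, of which 7 rose, 1 fell and 2 did not pass, with a median log2 difference of 0.69. Corin, the protease that cuts pro-ANP on the cardiomyocyte surface, had 9.56, 9.31 and 7.61 FPKM in the Trim28 libraries and 2.99, 3.02 and 3.41 FPKM in the Bgal libraries (log2 difference 1.24, SE 0.10, limma adjusted p = 0.000172). Furin, which cuts pro-BNP, had 101 ± 1.68 FPKM in Trim28 and 97.7 ± 6.26 FPKM in Bgal and did not pass (limma adjusted p = 0.510). Corin thus rose 2.81-fold, while the 95% interval for Furin ran from -0.08 to 0.17 on the log2 scale.

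All 3 receptor genes rose. Npr1, the guanylyl cyclase receptor of ANP and BNP, had 6.65 ± 0.180 FPKM in Trim28 and 3.81 ± 0.318 FPKM in Bgal. Npr2, the receptor of CNP, rose 1.81-fold and Npr3, the clearance receptor, 1.91-fold, and the limma adjusted p of the 3 genes lay between 0.000594 and 0.000723. Of the enzymes that break the peptides down, Mme, neprilysin, rose to 12.1 ± 0.129 FPKM in Trim28, against 4.43 ± 0.984 FPKM in Bgal. Ide, the insulin-degrading enzyme, fell to 30.0 ± 1.20 FPKM in Trim28, against 35.1 ± 2.72 FPKM in Bgal (limma adjusted p = 0.0302), a call that was lost with no filter on low genes (adjusted p = 0.0525) and without Bgal replicate 1 or 3 or Trim28 replicate 1 or 2, with adjusted p from 0.0651 to 0.0932.

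Among the cyclic nucleotide phosphodiesterases, Pde3a, whose activity cyclic GMP inhibits, had 50.6, 50.1 and 50.8 FPKM in the Trim28 libraries and 20.1, 21.7 and 20.9 FPKM in the Bgal libraries (log2 difference 1.23, SE 0.05, limma adjusted p = 1.42e-05). Pde5a, which breaks down cyclic GMP, rose 1.63-fold, to 3.50 ± 0.231 FPKM in Trim28, against 2.14 ± 0.228 FPKM in Bgal. Pde9a had 0.937 ± 0.182 FPKM in Trim28 and 0.796 ± 0.0601 FPKM in Bgal and did not pass (limma adjusted p = 0.506). Nppc, the gene of the third peptide CNP, was under the filter, with 0.351, 0.673 and 0.478 FPKM in the Trim28 libraries and 0.165, 0.135 and 0 FPKM in the Bgal libraries, and was not tested. Cells other than cardiomyocytes also express several of these receptors and enzymes, and the fibroblast and smooth muscle marker sums given above were higher in the same libraries. The smooth muscle sum was mostly Acta2, which neonatal cardiomyocytes can also express.

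**Figure D3:**
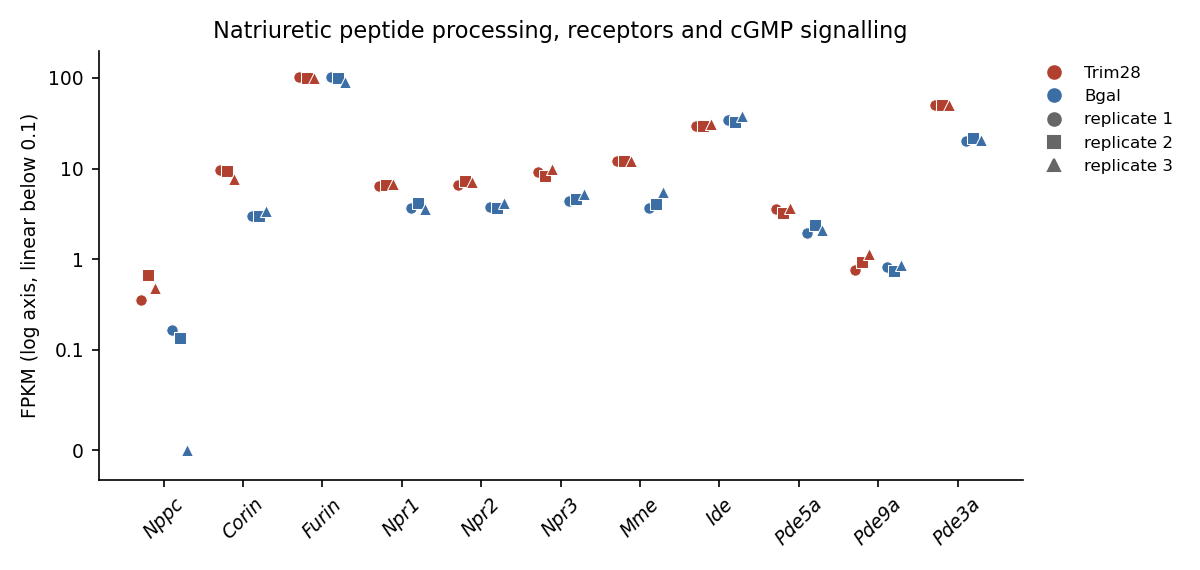
FPKM in every library, on an axis that is logarithmic above 0.1, of the 11 listed genes of natriuretic peptide processing, reception and cyclic GMP signalling, with Trim28 (red) left of Bgal (blue) and marker shape for the replicate number. Corin, Npr1, Npr2, Npr3, Mme, Pde5a and Pde3a are higher in every Trim28 library than in any Bgal library, and Ide is lower.

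Of the cardiac and skeletal alpha actin genes, the cardiac one passed the test and was higher in Trim28. Actc1 (ENSRNOG00000008536, chromosome 3) was the member with the highest level and the gene with rank 4 in the whole table. It had 9206, 8901 and 8948 FPKM in the Trim28 libraries, against 4740.2, 6038 and 6364 FPKM in the Bgal libraries. The Trim28 libraries lay close together, and Bgal replicate 1 was the lowest of all. The log2 difference was 0.67 (SE 0.12, 95% interval 0.40 to 0.94, limma adjusted p = 0.00354), or 1.58-fold.

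Acta1 (ENSRNOG00000017786, chromosome 19), the skeletal actin that fetal and stressed hearts use, had 195, 197 and 216 FPKM in the Trim28 libraries and 176, 184 and 189 FPKM in the Bgal libraries. The groups did not overlap, but its log2 difference of 0.14 (SE 0.05, 95% interval 0.02 to 0.27) missed the threshold (limma adjusted p = 0.0675). It passed by little in limma-voom (adjusted p = 0.0449), and with the replicate number as a block (adjusted p = 0.0472). Acta1 made up 2.20% ± 0.146 of the summed FPKM of both genes in Trim28 and 3.15% ± 0.382 in Bgal (SD, n = 3 each, no overlap, exact permutation p = 0.1, the smallest possible). The coding sequences of the actin genes are near copies of each other, so reads can be split between them, and values of single actin genes are uncertain to that extent.

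The start site windows of both genes are shown because each holds a CArG box, a motif that 1.64% of the 33469 windows hold. Both lie on the minus strand in RefSeq build GRCr8, Acta1 at chr19:68784145-68784444 and Actc1 at chr3:121271778-121272077, printed 5′ to 3′ along the gene with motif matches in capitals.
Acta1: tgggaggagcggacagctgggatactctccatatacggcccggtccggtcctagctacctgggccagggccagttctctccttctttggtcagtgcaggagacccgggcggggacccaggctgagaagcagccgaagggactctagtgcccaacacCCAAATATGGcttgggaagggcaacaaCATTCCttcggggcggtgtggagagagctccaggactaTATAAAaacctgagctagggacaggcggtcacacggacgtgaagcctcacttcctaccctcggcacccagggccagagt
Actc1: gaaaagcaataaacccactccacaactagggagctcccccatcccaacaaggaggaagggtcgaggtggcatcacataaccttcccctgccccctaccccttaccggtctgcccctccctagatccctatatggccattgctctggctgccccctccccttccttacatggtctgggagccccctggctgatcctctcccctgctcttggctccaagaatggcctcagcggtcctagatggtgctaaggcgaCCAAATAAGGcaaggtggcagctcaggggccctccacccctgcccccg

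In Acta1 the CArG box lies at -94 to -85, with CATTCC at -67 to -62 and TATAAA at -29 to -24. In Actc1 it lies at 3 to 12, just after the annotated start site. Windows were found for 8 of the 9 members, 12 windows in all, since some genes have several start sites. A CArG box stood in 5 of the 12, those of Acta1, Actc1, Fhl1 and Fhl2, and no match overlapped another. TGANTCA was found in windows of Xirp1 and Xirp2 alone. Of the 4 genes with a CArG box 2 rose, 1 fell and 1 did not pass.

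Of the 4 other actin genes 3 rose and 0 fell, against 20.1% higher and 21.1% lower among all tested genes. Acta2, the smooth muscle alpha actin, which neonatal cardiomyocytes can also express, rose to 1342 ± 52.1 FPKM in Trim28, against 692 ± 111 FPKM in Bgal. Actg2, the enteric smooth muscle actin, rose 1.86-fold and Actb, the cytoplasmic beta actin, 1.25-fold, while Actg1 had 153 ± 14.5 FPKM in Trim28 and 144 ± 6.32 FPKM in Bgal and did not pass (limma adjusted p = 0.376). Summed over the 6 actin genes, the level was 11362 ± 218 FPKM in Trim28 and 7248 ± 991 FPKM in Bgal. Actc1 held 79.4% ± 0.430 of that sum in Trim28 and 78.7% ± 1.34 in Bgal, with overlap between the groups. Acta2 held 11.8% ± 0.318 in Trim28 and 9.53% ± 0.364 in Bgal, without overlap.

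**Figure D4:**
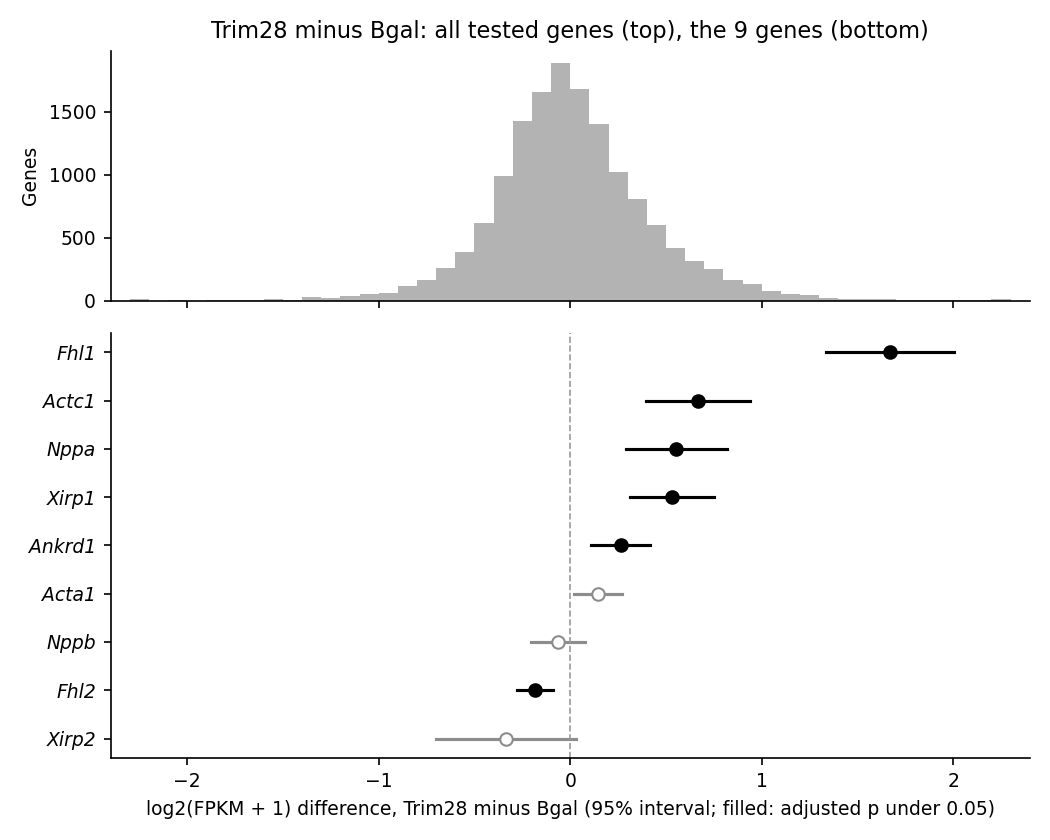
Top, a histogram of the log2(FPKM + 1) difference, Trim28 minus Bgal, over all 14808 tested genes, with values beyond the axis drawn in the outer bins. Bottom, the same difference for each of the 9 genes with its 95% interval, filled where the limma adjusted p was under 0.05; Fhl1 lies at 1.67, and the interval of Nppb spans 0 while that of Nppa does not.

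The LIM domain genes moved in opposite directions. Fhl1 (ENSRNOG00000000875, chromosome X), whose protein binds titin and takes part in the response to stretch, had 878, 865 and 791 FPKM in the Trim28 libraries, against 205, 298 and 301 FPKM in the Bgal libraries. The groups were far apart, and Bgal replicate 1 was again the lowest. The log2 difference was 1.67 (SE 0.14, 95% interval 1.34 to 2.01, limma adjusted p = 0.000204), or 3.15-fold. Among the 751 tested genes with a mean of at least 100 FPKM, 6 had a larger difference in either direction. Trim28 itself, which the virus expresses, is among these, at 4.60.

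Fhl2 (ENSRNOG00000016866, chromosome 9), a coregulator enriched in heart that restrains hypertrophy in mice, had 329, 329.8 and 319 FPKM in the Trim28 libraries and 379.8, 371 and 360.0 FPKM in the Bgal libraries. All Trim28 values were below all Bgal values, although the fall was small. The log2 difference was -0.18 (SE 0.04, 95% interval -0.28 to -0.09, limma adjusted p = 0.00983). Fhl1 made up 72.1% ± 0.776 of the summed FPKM of both genes in Trim28 and 41.7% ± 5.78 in Bgal (SD, n = 3 each, exact permutation p = 0.1, the smallest possible). Fhl1 thus stood above Fhl2 in every Trim28 library and below it in every Bgal library. Fhl3, a relative with the same domain, had 8.82 ± 0.804 FPKM in Trim28 and 8.88 ± 1.09 FPKM in Bgal, and it was picked with its values in view.

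The windows of Fhl1 and Fhl2 with a CArG box are shown because these genes share the motif and moved in opposite directions. They lie in RefSeq build GRCr8 at chrX:139638246-139638545 on the plus strand for Fhl1 and at chr9:52954491-52954790 on the minus strand for Fhl2.
Fhl1: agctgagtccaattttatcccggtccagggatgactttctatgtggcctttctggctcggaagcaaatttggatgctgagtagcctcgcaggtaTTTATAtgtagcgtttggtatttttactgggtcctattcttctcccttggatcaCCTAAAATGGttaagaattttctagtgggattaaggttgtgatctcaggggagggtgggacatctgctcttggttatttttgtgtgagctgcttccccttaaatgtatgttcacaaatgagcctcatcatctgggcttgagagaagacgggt
Fhl2: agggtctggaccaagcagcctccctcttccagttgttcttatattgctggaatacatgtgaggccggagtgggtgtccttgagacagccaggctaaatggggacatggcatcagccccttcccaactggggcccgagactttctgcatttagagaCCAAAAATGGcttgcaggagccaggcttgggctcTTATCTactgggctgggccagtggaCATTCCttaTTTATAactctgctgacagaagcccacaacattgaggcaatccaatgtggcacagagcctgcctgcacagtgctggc

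In Fhl1 the CArG box lies at -102 to -93 and in Fhl2 at -95 to -86. The Fhl2 window also holds a reverse match to AGATAA at -61 to -56 and CATTCC at -36 to -31. RefSeq lists another start site for each gene, and in that of Fhl2 a CArG box lies at -58 to -49. FPKM values are per gene and do not show which start site was used.

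**Figure D5:**
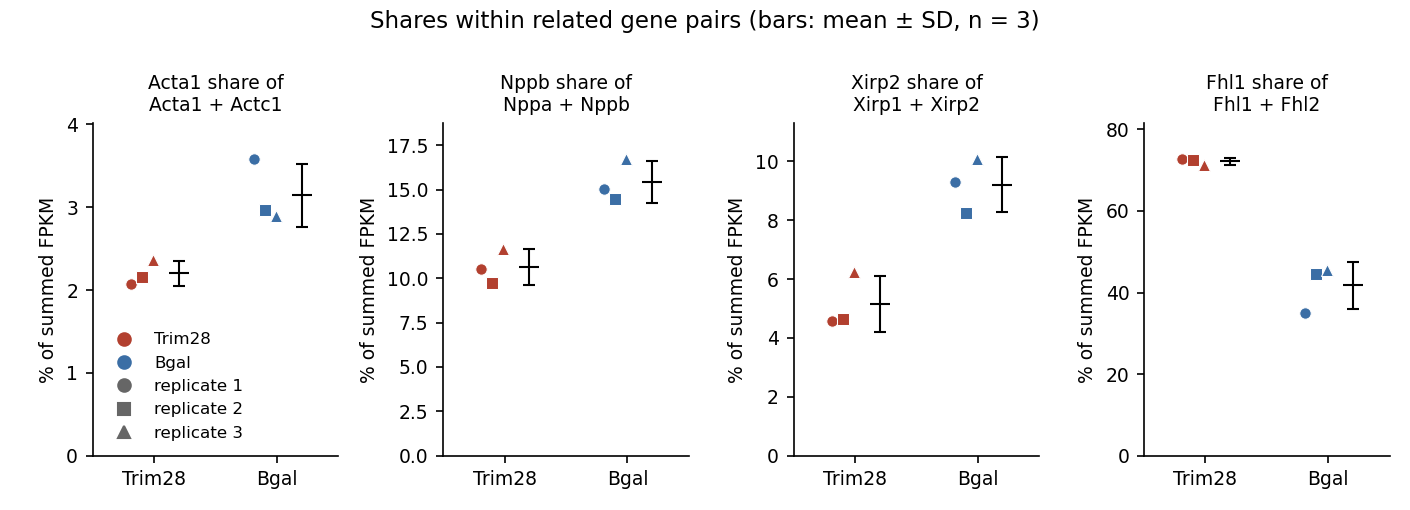
Share of 1 gene in the summed FPKM of a related pair in each library, in percent, with Trim28 (red) left of Bgal (blue), marker shape for the replicate number and bars for the mean ± SD of 3 libraries. In all 4 pairs the groups do not overlap, and the Fhl1 share is near 72% in every Trim28 library.

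The Xin genes differed from each other. Xirp1 (ENSRNOG00000037085, chromosome 8) had 149.7, 144 and 168 FPKM in the Trim28 libraries, against 102, 121 and 96.2 FPKM in the Bgal libraries, without overlap. Its log2 difference was 0.53 (SE 0.09, 95% interval 0.31 to 0.75, limma adjusted p = 0.00390), or 1.45-fold. Xirp2 (ENSRNOG00000034258, chromosome 3), the member with the lowest level, had 7.15, 7.02 and 11.2 FPKM in Trim28 replicates 1, 2 and 3 and 10.5, 10.9 and 10.8 FPKM in the Bgal libraries. Trim28 replicate 3 was at the Bgal level or just above it, and the other two Trim28 libraries were below it.

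The log2 difference of Xirp2 was -0.34 (SE 0.16, 95% interval -0.70 to 0.03, limma adjusted p = 0.124) over all libraries and -0.53 (SE 0.07, adjusted p = 0.00201) without Trim28 replicate 3. Without Trim28 replicate 1 or 2 it was -0.24 and -0.23 (adjusted p = 0.303 and 0.314). That library also held the lowest Trim28 level, 980.0 FPKM, and whether this bears on Xirp2 was not tested. The 3 values rest on 2419, 2232 and 3886 reads, so counting error is small beside the gap between them. Xirp2 made up 5.15% ± 0.938 of the summed FPKM of both Xin genes in Trim28 and 9.21% ± 0.931 in Bgal (SD, n = 3 each, no overlap, exact permutation p = 0.1, the smallest possible). Trim28 replicate 3 was not set apart in 1 direction for the other members: it was the lowest of its group for Nppa, Fhl1 and Fhl2 and the highest for Xirp1, Acta1 and Ankrd1.

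Ankrd1 (ENSRNOG00000018598, chromosome 1), which encodes the cardiac ankyrin repeat protein, was the gene with rank 11 in the table. It had 4224, 4158 and 4249 FPKM in the Trim28 libraries and 3300.0, 3523 and 3716 FPKM in the Bgal libraries, without overlap. The log2 difference was 0.26 (SE 0.07, 95% interval 0.11 to 0.42, limma adjusted p = 0.0163), or 1.20-fold. The call rested on having all Trim28 libraries: without Trim28 replicate 1, 2 or 3 the adjusted p was 0.0646, 0.0613 and 0.0517, with differences of 0.26, 0.27 and 0.26, and with no filter on low genes it was 0.154.

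Relatives and partners of the ANKRD, Xin and FHL proteins were mostly higher, with 8 of 13 tested genes rising, 1 falling and 4 not passing, and a median log2 difference of 0.26. Enah, an actin regulator that binds Xirp1, rose to 333 ± 20.5 FPKM in Trim28, against 172 ± 13.3 FPKM in Bgal, Ldb3, a Z-disc protein, to 284 ± 5.54 FPKM, against 183 ± 15.0 FPKM, and Flnc, the muscle filamin, to 134 ± 4.09 FPKM, against 101 ± 5.90 FPKM. Of 15 tested transcription factors known to act on stress gene promoters, 8 rose, 3 fell and 4 did not pass (median 0.18). Mef2c rose to 32.2 ± 1.71 FPKM in Trim28, against 23.0 ± 0.880 FPKM in Bgal (limma adjusted p = 0.000766). Tead1 fell to 56.0 ± 3.50 FPKM in Trim28, against 73.8 ± 2.82 FPKM in Bgal (limma adjusted p = 0.00158).

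Of 14 tested further genes of the hypertrophic and stress response, 9 rose, 3 fell and 2 did not pass, with a median log2 difference of 0.35. Among all tested genes 20.1% were higher and 21.1% lower. Adm, the gene of the vasodilator adrenomedullin, had 22.4 ± 1.09 FPKM in Trim28 and 7.19 ± 0.433 FPKM in Bgal, and Timp1, an inhibitor of matrix proteases, 104 ± 4.05 FPKM in Trim28 and 49.7 ± 3.82 FPKM in Bgal. Both genes are also expressed by cells other than cardiomyocytes. Gdf15, 1 of the 3 genes that fell, had 23.5 ± 4.10 FPKM in Trim28 and 41.9 ± 11.1 FPKM in Bgal (limma adjusted p = 0.0137). The fibroblast marker list, of which 7 of 8 genes rose, had a median log2 difference of 0.71.

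The order of levels among the members was headed in both groups by Actc1, Nppa and Ankrd1, and Xirp1 and Xirp2 came last in both. Between them, the Trim28 libraries ran Fhl1, Nppb, Fhl2 and Acta1, and the Bgal libraries Nppb, Fhl2, Fhl1 and Acta1. Some neighbours were not apart beyond their spread: the ranges of Fhl1 and Nppb met in Trim28, and those of Actc1 and Nppa overlapped in Bgal. Together the 9 genes took 3.12% ± 0.0584 of all gene reads in Trim28 and 2.16% ± 0.176 in Bgal (SD, n = 3 each, no overlap, exact permutation p = 0.1, the smallest possible). Between libraries of a group, the median coefficient of variation of the members was 5.57% in Trim28 and 5.93% in Bgal, against 3.25% and 4.98% for the 751 abundant genes in Trim28 and Bgal.

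Other genes were ranked by how near their profile over the 6 libraries came to that of a member, as the root mean square distance between log2(FPKM + 1) values, each centred on its own mean, over 12095 genes with a symbol. Nearest to Nppa were Clec2l (distance 0.0242), Dkc1 (0.0413) and Dapk3 (0.0454), and Nppb was at 0.329. Clec2l was near the filter, with 0.0611 to 0.902 FPKM from 3 to 36 reads a library, and its distance rests on the pseudocount: its log2 difference was 0.56 at a pseudocount of 1 and 1.66 at 0.1, while that of Nppa was 0.55 and 0.56. Close to Nppb were Ifrd1 (0.0203) and Myl6 (0.0208), and nearest to Ankrd1 were Pdss1 (0.0197), Aff4 (0.0213) and Mical2 (0.0243). Fhl1 had no neighbour as close, with Prag1 at 0.106, Tppp at 0.114 and Angptl4 at 0.123. The distances of Tppp and Angptl4 also rest in part on the pseudocount. By mean FPKM these genes rose 3.93-fold and 4.63-fold, against 3.15-fold for Fhl1. Their log2 differences at a pseudocount of 1 were 1.73 and 1.68, against 1.67 for Fhl1. None of these genes is a member, and a profile of 6 libraries in 2 groups leaves room for many near ones.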

How the data were processed

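Poly(A) RNA of 3 Trim28 and 3 Bgal libraries was measured. Values are FPKM as the authors deposited them, per the file headers, with gene lengths and coordinates of the same table. HISAT2 2.0.5 and DESeq2 were used, per the submitters' processing notes. No source used here names the counting tool, the strand setting or the genome build.

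Reads per gene, used for the share of all reads and for limma-voom, were recovered from FPKM times length, since 100% of values above 0 came out whole within 0.01. Whether they are fragments or mates is unknown. The design assumed either counts or FPKM and took the second. The comparison, on log2(FPKM + 1), kept genes that reached 0.5 FPKM in 3 or more libraries and used limma 3.58.1 (R 4.3.3, trended variance, two-sided) with Benjamini-Hochberg adjustment over 14808 genes. The pseudocount of 1 understates differences of low genes. Ratios called fold are of mean FPKM. On simulated reads with known folds for this comparison, over 14637 genes, this test recovered 16% of changes of 1.25-fold, 92% of 1.5-fold and 96% of 2-fold. On the same reads limma-voom recovered 64% of changes of 1.25-fold. Only 50 genes were changed at each of these folds, whereas 41.2% of genes passed in the data. The simulated shares therefore do not give the recovery in the data, where the adjusted threshold is less strict. Libraries of a group differed beyond counting noise (chi-square per degree of freedom 5.77 to 17.4), so none was a copy.

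The members and gene lists were chosen with earlier results of these data known. Named genes were the members, all genes of the natriuretic and actin lists, up to 4 genes with the smallest p of other lists, Fhl3 and Ckm, picked with their values in view, the nearest profiles and the neighbours of Nppa and Nppb; some were left out for length, and some are not reported here. Alternatives were another pseudocount, 2 other filters, 2 other scalings, limma-voom, a replicate block and leaving out each library. Start site windows of 8 of the 9 members were found in RefSeq (GRCr8). The table had 0 columns of other samples.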

Additional observations from a re-analysis of the deposited data

How the results depend on the processing

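Over 13 alternatives, 5 of the 9 members (Nppb, Xirp1, Actc1, Fhl1 and Fhl2) kept their direction and their side of the threshold. With no filter on low genes 3 members rose in place of 5, since Nppa and Ankrd1 no longer passed. In that setting 23.4% of 23443 genes passed, against 41.2% in the main fit. In limma-voom 6 members rose and 2 fell, with Acta1 added at an adjusted p of 0.0449 and Xirp2 at 0.0458. There 44.3% of all tested genes passed. The cause of these changes was not tested. Leaving out 1 library gave 4 to 5 members higher and 1 to 2 lower, and 2329 to 2726 genes higher and 2454 to 2917 lower over the table. In these fits 32.3% to 38.1% of all tested genes passed. The differences in shares, in percentage points, then ran from -1.07 to -0.726 for Acta1, -5.31 to -4.13 for Nppb, -4.59 to -3.61 for Xirp2, 27.1 to 32.3 for Fhl1 and 0.858 to 1.02 for all members. On reads in place of FPKM, which weights longer genes more, the Xirp2 share differed by -7.10 and the Fhl1 share by 22.7 points, and the summed members by 1.44 points on FPKM in place of reads. Of 43 other named genes 37 kept their call and 6 did not, and Furin, which passed in no setting, ran from -0.0060 without Bgal replicate 3 to 0.0756 without Bgal replicate 1.

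The labels do not say whether same-numbered libraries were paired. Their deviations correlated at -0.016, 0.134 and 0.009, and not every library correlated best with its own number. With 3 libraries in each group, these values cannot tell whether a number marks a shared batch. With the replicate block 6 members rose and 1 fell, Acta1 being the added one, and 5666 genes (38.3%) passed. Depth did not limit the members, but Nppc was too low to test.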

Other observations

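Nppa is also a marker of atrial muscle, and other atrial markers differed in both directions. Of 6 tested genes of that list 2 rose and 4 fell, with a median log2 difference of -0.92. Myl7, the atrial regulatory light chain, fell to 17.9 ± 1.95 FPKM in Trim28, against 41.1 ± 2.83 FPKM in Bgal, and Myl4, the atrial essential light chain, to 31.3 ± 3.17 FPKM, against 64.5 ± 6.70 FPKM (SD, n = 3 each, limma adjusted p = 0.000129 and 0.000284). The atrial transcription factor genes Nr2f1 and Nr2f2, the second of which stromal cells also express, rose. Nr2f2 had 8.68 ± 1.08 FPKM in Trim28 and 4.19 ± 0.319 FPKM in Bgal, and Nr2f1 had 2.17 ± 0.0515 FPKM in Trim28 and 1.30 ± 0.184 FPKM in Bgal (limma adjusted p = 0.000608 and 0.00967). The summed atrial level was 63.9 to 74.6 FPKM in the Trim28 libraries and 119 to 139 FPKM in the Bgal libraries, far below that of Nppa alone. These genes were picked with their values in view.

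Acta1 is also a gene of skeletal muscle, whose other markers did not rise. The list holds 7 genes, 3 passed the filter on low values, 0 were called higher and 1 lower. That one, Ckm, the muscle creatine kinase, which heart also expresses, had 152 ± 10.5 FPKM in Trim28 and 279 ± 5.90 FPKM in Bgal (limma adjusted p = 8.27e-05). Myod1 and Myog, the factors that define skeletal muscle, averaged at most 0.142 FPKM in either group.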
